A study of Rattus norvegicus with 4 samples.

Results

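Small leucine-rich proteoglycans are secreted matrix proteins with a core of leucine-rich repeats, and 8 of them that are known from dermis were followed here by gene symbol: Dcn (decorin), Bgn (biglycan), Aspn (asporin), Lum (lumican), Fmod (fibromodulin), Prelp, Omd (osteomodulin) and Ogn (osteoglycin, or mimecan). All 8 symbols were found among the 54532 genes of the count table, and 5 of the 8 had a count in any library, as did 12902 of all genes. The libraries were made by RNA-seq from ear skin of 2 wild-type Sprague Dawley (SD) rats on day 3. One ear of each rat was injected with AAV, an adeno-associated virus that serves to carry genes into cells, with Fgf7, the gene of the keratinocyte growth factor FGF7, and the other with control virus. Each group, control and AAV-Fgf7, therefore held 2 libraries, 1 per rat. The sample titles and the design text give opposite sides for the virus, so the side was not used. The viral promoter and the age and sex of the rats, not given in the sources used here, played no part. The comparison asked how skin transcripts differ when Fgf7 is delivered, in a study of wound healing.

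The proteins of this family bind collagen fibrils in the extracellular matrix and are known for control of fibril diameter and spacing. Decorin and biglycan carry chondroitin or dermatan sulfate chains, lumican and fibromodulin carry keratan sulfate, and asporin carries no such chain. Several members also bind growth factors such as TGF-beta. In skin, decorin and lumican are made by dermal fibroblasts, and loss of decorin or lumican in mice leaves fragile skin with irregular fibrils. Fibromodulin, PRELP and osteoglycin are also known from cartilage, tendon and other dense connective tissue, and osteomodulin from bone.

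Libraries held 1299136 to 1601321 counts. The rows are mouse genes, although the animals were rats and the submitters name a rat genome build. Fgf7 checked the labels, with raw counts of 94 (rat 1) and 110 (rat 2) after control virus and 454 (rat 1) and 1429 (rat 2) after AAV-Fgf7. Libraries of the same group differed in tissue markers: the summed level of 16 skeletal muscle markers was 15103 CPM and 63340 CPM in the controls of rats 1 and 2 but 32997 CPM and 15996 CPM with AAV-Fgf7, where CPM is the TMM-scaled count relative to the library total. Of 152 marker genes of skin, muscle, cartilage, vessel, nerve and immune cells found in the table, 34 were at 0 in every library. Among dermal fibroblast markers, Col1a1, Col3a1, Vim and Fn1 were abundant, whereas Dpt, Mfap5 and Twist2 were at 0.

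Bases before the annotated start are shown for 3 members, because Fmod and Ogn had like profiles over the libraries and Aspn did not. Of the 8 members, 5 had a promoter in the RefSeq table of the rat build GRCr8, and only bases outside the annotated gene are printed, 5′ to 3′ on the gene's strand. Fmod lies on the plus strand (chr13:48045317-48045566), and Ogn (chr17:15259168-15259245) and Aspn (chr17:15310568-15310719) lie on the minus strand. Capitals mark matches on either strand to 4 motifs. The motif TATAAA is known from core promoters, the letters GGGCGG from Sp factor sites, the letters CCAAT from NF-Y sites, and the letters CAGAC from Smad sites.
Fmod: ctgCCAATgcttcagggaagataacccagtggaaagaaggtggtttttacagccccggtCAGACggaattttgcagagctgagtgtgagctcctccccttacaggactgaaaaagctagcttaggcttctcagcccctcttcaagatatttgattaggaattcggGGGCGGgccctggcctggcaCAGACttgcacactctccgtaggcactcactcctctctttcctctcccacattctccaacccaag
Ogn: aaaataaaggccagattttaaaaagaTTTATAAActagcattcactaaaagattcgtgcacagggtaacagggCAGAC
Aspn: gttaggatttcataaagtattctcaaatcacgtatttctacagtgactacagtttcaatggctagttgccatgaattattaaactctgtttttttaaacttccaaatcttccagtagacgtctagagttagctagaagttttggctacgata
In the 250 bases before each start, Fmod held the Sp, NF-Y and Smad motifs. Ogn held the core promoter motif on both strands in overlap, with first bases at -224 and -222 from the start, and the Smad motif at -177. Aspn held none of these, nor the AP-1 motif TGANTCA. Omd and Lum also had a promoter in that table but are not printed. Omd held none of these motifs either. The ratio of AAV-Fgf7 to control for Omd, on few counts, was 2.23 in rat 1 and 0.416 in rat 2. Fmod and Ogn had these directions, as did 29.2% of all tested genes. Lum, which had no counts, held the NF-Y and Smad motifs. For Ogn and Aspn the printed bases are the part of that window farthest from the start. Of the same windows of 33469 rat promoters, 30.5% held the Sp motif, 34.0% the NF-Y motif, 42.9% the Smad motif, 12.9% the core promoter motif and 6.34% the AP-1 motif. Such matches are letters in a window, and no binding was measured. A link between the motifs and the profiles over the libraries was not tested.

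Dcn and Lum, the best-known members in skin, had no counts, nor had Prelp. These 3 genes were at 0 in each of the 4 libraries, beside Col1a1 counts of 36568 (rat 1) and 48353 (rat 2) in controls and 46841 (rat 1) and 33135 (rat 2) with AAV-Fgf7. Col1a1 encodes a chain of collagen I, to which decorin and lumican bind. At this depth a count of 0 allows up to 3 counts, or 1.98 to 2.25 CPM in the 4 libraries, for counting error only. The 2-sided Poisson 95% interval used below for the other members has a higher upper end at 0 counts, 2.43 to 2.77 CPM. A count of 0 was common in the table: 47.6% of 22046 protein-coding rows were at 0 in every library, and so were 34.5% of the 16499 whose symbol is also a protein-coding gene of the rat table. All 8 members have such a rat gene. With the assignment of reads to these rows not given in the sources used here, such a 0 does not show that the transcripts were absent, and its cause was not tested.

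The members lie in gene clusters, and these differed in whether they held counts. On mouse chromosome 10, Dcn (97479609 to 97518143, plus strand) and Lum (97565128 to 97572703) are followed by Kera and Epyc, which encode the related proteins keratocan and epiphycan, and all 4 were at 0. On chromosome 1, Prelp (133910304 to 133921414, minus strand) was at 0 and its neighbour Optc, the opticin gene, had 1 count in 2 of the libraries. Fmod, from 134037254 to 134048277 on the plus strand, had counts in all 4. On chromosome 13, Ecm2, Aspn (49544443 to 49567565), Omd (49582462 to 49592822) and Ogn (49608046 to 49624501) stand next to each other on the plus strand and all had counts in every library. Bgn lies alone on chromosome X, from 73483602 to 73495933. These positions are as the files give them, with the mouse build not given in the sources used here.

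Among the 5 members with a count, Bgn and Ogn were the most abundant per gene length. FPKM, the authors' value per gene model length and library total, of Bgn was 233 (rat 1) and 465 (rat 2) in controls, against 338 (rat 1) and 207 (rat 2) with AAV-Fgf7. Ogn stood at 200.2 and 363 FPKM in controls and at 263 and 157 FPKM in AAV-Fgf7 libraries. Bgn was above Ogn in each library, by 1.16 to 1.32 times, but the ranges of both over the libraries overlapped. Aspn (33.8 to 40.7 FPKM) and Fmod (17.1 to 46.0 FPKM) came next, with Aspn the higher in 3 libraries and Fmod in the control of rat 2, so their order is not resolved. Omd was lowest of those with counts, from 1.21 to 3.69 FPKM, below the range of each of the other 4. The lengths are those of the listed gene models, 6099 bases for Bgn and 2566 for Ogn, and the part of each model that reads cover is unknown. Between 0.188% and 0.384% of a library's counts fell on the 8 members together, and Bgn alone held 67.3% to 70.6% of these.

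**Figure D1:**
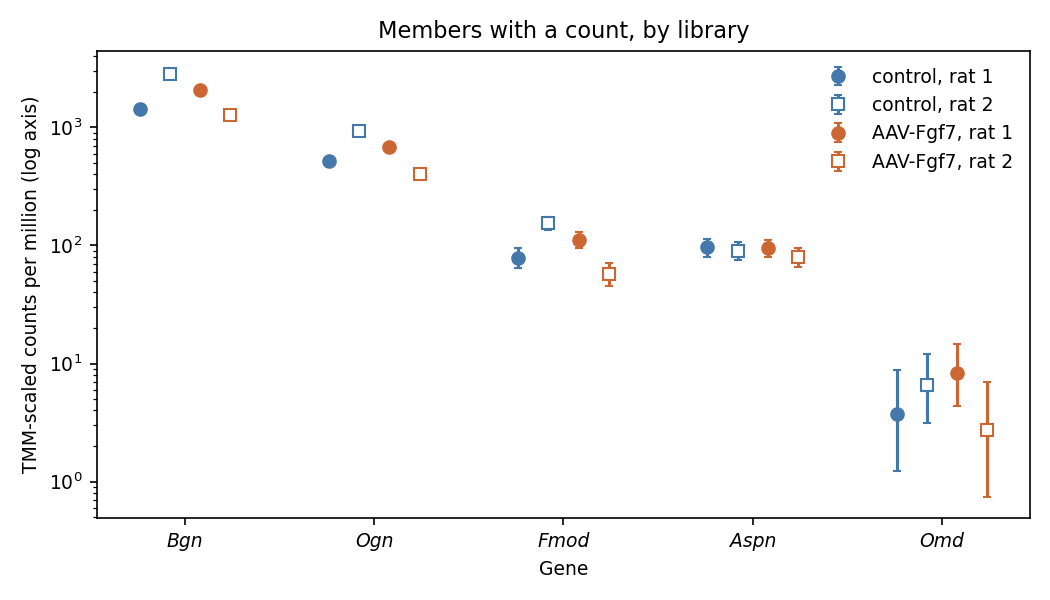
CPM, on a log axis, of the 5 members with a count in each library, with exact Poisson 95% intervals for counting error. Bgn, Ogn and Fmod are highest in the control of rat 2 and lowest in the AAV-Fgf7 library of rat 2, whereas the points of Aspn lie between 80.1 and 96.2 CPM.

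No member was called between AAV-Fgf7 and control ears by the edgeR quasi-likelihood test over 6370 genes. Enough counts for a test were found for 4 of the 8 members, and 0 were called, where 0% of all tested genes had an adjusted p under 0.05. No member was among the 148 genes (2.32%) with an unadjusted p under 0.05. DESeq2 called 4 genes (0.0628%) and limma-voom 0, again without a member. The edgeR test also did not call Fgf7, the delivered gene (log2 fold change 3.18, SE 0.54, edgeR adjusted p = 0.9996). For Fgf7 the DESeq2 adjusted p was 3.47e-07. The lack of an edgeR call here therefore does not show the lack of a difference. The 4 tested members had log2 fold changes below 0 (median -0.38, beside -0.02 for all tested genes). In 0 of them did both AAV-Fgf7 libraries lie beyond both controls, a pattern held by 28.1% of the tested genes. In such bulk tissue, fewer cells of a type and less RNA per cell cannot be told apart.

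Among the members with sugar chains on a decorin-like core, Bgn had counts in all libraries. Biglycan, the closest relative of decorin, binds collagen and TGF-beta and in soluble form acts on Toll-like receptors. Its raw counts were 1900 (rat 1) and 4341 (rat 2) in controls, against 2986 (rat 1) and 1861 (rat 2) with AAV-Fgf7. That is 1428 and 2859 CPM against 2086 and 1274 CPM. Both AAV-Fgf7 values were below the control of rat 2, and that of rat 1 was above the control of rat 1, so the groups overlapped. Group means were 2143 ± 1012 and 1680 ± 575 CPM (SD, n = 2), a log2 difference of -0.35 (SE 0.39, edgeR adjusted p = 0.9996). Within the controls alone, rat 2 stood at 2.002 times the level of rat 1.

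Aspn, which encodes the decorin-like asporin with a run of aspartates and no sugar chain, varied least. Its counts were 128 and 136 in the controls and 135 and 117 in the AAV-Fgf7 libraries of rats 1 and 2, or 96.2, 89.6, 94.3 and 80.1 CPM. The highest library exceeded the lowest by 1.20 times, and the exact Poisson 95% intervals of the 4 counts all overlapped (66.2 to 96.0 CPM for the lowest, 80.2 to 114 CPM for the highest). Means were 92.9 ± 4.68 CPM in controls and 87.2 ± 10.1 CPM with AAV-Fgf7 (SD, n = 2), with a log2 fold change of -0.09 (SE 0.23, edgeR adjusted p = 0.9996).

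Fmod, which encodes the keratan sulfate carrier fibromodulin, had enough counts for a test, unlike Lum. Fibromodulin binds collagen I and guides its crosslinking by lysyl oxidase. Raw counts were 105 and 233 in control ears of rats 1 and 2 and 160 and 83 after AAV-Fgf7, or 78.9 and 153 against 112 and 56.8 CPM. Again the control of rat 2 was highest and the AAV-Fgf7 library of rat 2 lowest, a span of 2.70 times, and the groups overlapped. The log2 fold change was -0.46 (SE 0.44), and the edgeR adjusted p was 0.9996. Omd, whose product binds hydroxyapatite and osteoblasts in bone, had only 5 and 10 counts in controls and 12 and 4 in AAV-Fgf7 libraries and was not tested. Its Poisson 95% intervals ran from 0.746 to 7.01 CPM in the lowest library and from 4.33 to 14.6 CPM in the highest, so no difference was detectable at this depth. Of 9 bone markers 5 were at 0 in every library, among them Bglap, Ibsp and Dmp1, and Sp7 and Spp1 had 1 count each in all libraries together. The bone markers Phex and Runx2 did have counts in every library and were tested. Phex had 19 and 68 counts in controls of rats 1 and 2 and 21 and 30 with AAV-Fgf7. Runx2 had 18 and 10 against 7 and 11.

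Ogn, which encodes osteoglycin, a fibril-binding protein cut by BMP1, had 687 and 1425 counts in controls of rats 1 and 2 and 975 and 594 in AAV-Fgf7 libraries. On the CPM scale these were 516, 938, 681 and 407. The control of rat 2 exceeded both AAV-Fgf7 libraries, and the control of rat 1 lay between them. The log2 fold change was -0.42 (SE 0.37, edgeR adjusted p = 0.9996), with group means of 727 ± 299 and 544 ± 194 CPM (SD, n = 2).

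Summed over the 8 members, the level was 2123 CPM (rat 1) and 4047 CPM (rat 2) in controls, against 2982 CPM (rat 1) and 1820 CPM (rat 2) with AAV-Fgf7. The 2-sided exact permutation test gave p = 0.667, and 2 libraries against 2 cannot give a p below 0.333. The sums follow Bgn, which holds most of the counts. For Bgn, Fmod and Ogn the direction of the fold change rested on the control library of rat 2, and for Aspn on the AAV-Fgf7 library of rat 2. Without the control of rat 2 the log2 values were 0.24 for Bgn, 0.10 for Fmod, 0.081 for Ogn and -0.14 for Aspn, and without the AAV-Fgf7 library of rat 2 they were -0.04, -0.06, -0.09 and 0.023 in the same order.

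Bgn, Ogn and Fmod kept nearly constant proportions to each other from library to library. The ratio of Bgn to Ogn counts was 2.77 and 3.05 in the controls and 3.06 and 3.13 in the AAV-Fgf7 libraries of rats 1 and 2. The ratio of Ogn to Fmod counts was 6.54, 6.12, 6.09 and 7.16 in the same order. The ratio of Bgn to Aspn counts was not constant: it stood at 14.8 and 31.9 in controls and at 22.1 and 15.9 in AAV-Fgf7 libraries. As root-mean-square distances between centred log2 CPM profiles over the 4 libraries, Bgn, Ogn and Fmod lay 0.07 to 0.12 from each other and 0.41 to 0.49 from Aspn. These are descriptions of 4 libraries, with no test.

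With the AAV-Fgf7 libraries matched to the rats by column number, the ratio between the ears went opposite ways in the rats for these 3 genes. If that match were exchanged, the ratio would be below 1 in both rats for each of the 3. For Aspn it would then lie on opposite sides of 1. The match was not tested. AAV-Fgf7 over control was 1.46 in rat 1 and 0.446 in rat 2 for Bgn, 1.32 and 0.433 for Ogn, and 1.42 and 0.370 for Fmod. For Aspn it was 0.981 and 0.894. Opposite directions were common, in 59.1% of the 6370 tested genes, and 29.2% had the direction of Bgn, above 1 in rat 1 and below 1 in rat 2. The highest library exceeded the lowest by at least 2 times in these 3 of the 4 tested members and in 33% of all tested genes.

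Markers of muscle and cartilage had the same highest and second library as Bgn, Ogn and Fmod. The control of rat 2 was highest, the AAV-Fgf7 library of rat 1 came second, and the control of rat 1 and the AAV-Fgf7 library of rat 2 were lowest, in either order. The muscle and cartilage sums were lowest in the control of rat 1, and Bgn, Ogn and Fmod in the AAV-Fgf7 library of rat 2. The order with the lowest libraries in either place, looked for after the values were seen, was held by 3 of 4 tested members and 15 of 15 tested skeletal muscle markers. It was also held by 8 of 8 tested cartilage markers and 14.9% of all tested genes. Cartilage markers summed to 668 and 2221 CPM in the controls of rats 1 and 2 and to 1186 and 684 CPM with AAV-Fgf7. Of 18 cartilage markers 13 had a count, Acan and Col11a1 being the most abundant, and Matn1, Cnmd, Chad, Snorc and Cytl1 were at 0. Of 16 muscle markers 15 had a count and Tnnc2 was at 0. Tendon and fascia markers summed to 466 and 1243 CPM in controls and to 675 and 519 CPM after AAV-Fgf7, with 3 of 6 tested genes in that order and Kera at 0. Adipocyte and smooth muscle sums had that order too, with 2 of 3 and 3 of 6 tested genes in it. So did the sums of chondroitin or dermatan sulfate synthesis, keratan sulfate synthesis and other proteoglycan genes (4 of 13, 1 of 3 and 3 of 10 tested genes). These 3 sums, like Bgn, were lowest in the AAV-Fgf7 library of rat 2. The part of any of these tissues in the levels of Bgn, Ogn and Fmod was not tested.

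Dermal fibroblast markers did not follow that order as a group. Their sum in rats 1 and 2 was 52097 CPM and 53642 CPM with control virus and 53942 CPM and 43903 CPM with AAV-Fgf7, a span of 1.23 times, and 2 of 10 tested markers held the order. The looser pattern of Bgn, AAV-Fgf7 over control above 1 in rat 1 and below 1 in rat 2, was held by 7 of these 10. It was held by 29.2% of all tested genes. Most of the sum was Col1a1 and Vim, whose library orders differed. Vim, the vimentin gene, stood at 15334 and 11839 CPM with control virus and at 11359 and 14510 CPM with AAV-Fgf7 in rats 1 and 2, highest where Col1a1 was low, so the narrow span of the sum joins opposed genes. Set against Col1a1, Bgn still varied: it had 52.0 and 89.8 counts per 1000 Col1a1 counts in controls and 63.7 and 56.2 in AAV-Fgf7 libraries. Aspn had 3.50 and 2.81 per 1000 in controls and 2.88 and 3.53 in AAV-Fgf7 libraries. Basal keratinocyte markers, which include Krt14 and Krt5, summed to 1285 and 1234 CPM in controls and to 1969 and 3699 CPM after AAV-Fgf7. The library with the most of them had the least Bgn, Ogn and Fmod, and the library with the least had the most. In rat 1, however, this sum and Bgn (1428 CPM in control, 2086 CPM with AAV-Fgf7) were both higher with AAV-Fgf7. The controls had close sums but Bgn of 1428 and 2859 CPM. The part of these cells in the levels of the 3 genes was not tested.

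**Figure D2:**
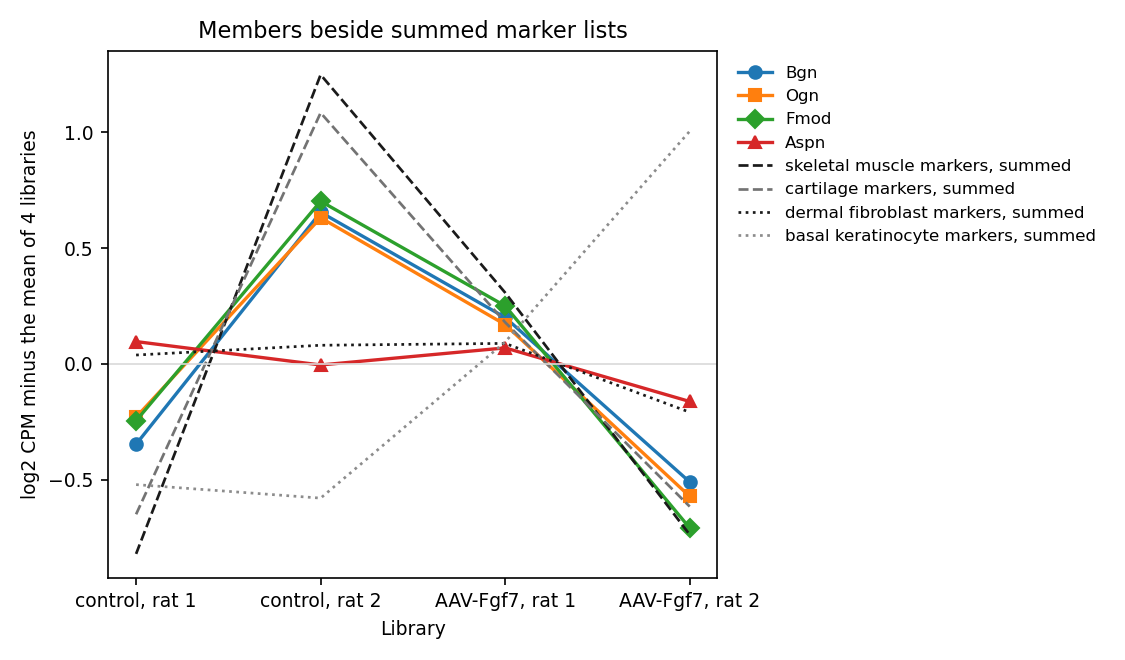
log2 CPM minus the mean over the 4 libraries for the 4 tested members (solid lines, markers) and for the summed CPM of 4 marker lists (broken lines), by library; lines join values of the same gene or list and imply no order of libraries. Bgn, Ogn and Fmod lie nearly on each other and peak in the control of rat 2 together with the muscle and cartilage sums, while Aspn and the fibroblast sum stay nearer to 0.

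Genes with the nearest profiles were named by distance among 4365 tested genes of at least 20 CPM on average. Nearest to the mean profile of the 4 tested members were Dmd, which encodes dystrophin (distance 0.02), Dact3 (0.03), Apbb1 (0.04), Dtx3 (0.05) and Foxo4 (0.05). Nearest to Bgn were Sox6 (0.04), a transcription factor gene, and Ppargc1a (0.05), which encodes a coactivator of mitochondrial genes. Nearest to Ogn were Got1 (0.02), Fgfr1 (0.02), a receptor gene for FGFs, and Sox9 (0.03), the transcription factor gene of cartilage. Nearest to Fmod were the elastin gene Eln (0.06), the BMP antagonist gene Nog (0.06) and the membrane protease gene Mmp15 (0.07). With 4 libraries many genes lie close, and these distances carry no test.

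The wider family and the enzymes that build its sugar chains had no called gene in either direction. Of 10 other leucine-rich repeat proteins of matrix, 3 had a count and 2 were tested. Ecm2, beside Aspn in the genome, had 49 and 61 counts in controls and 47 and 29 in AAV-Fgf7 libraries (log2 fold change -0.55, SE 0.36). Podn, which encodes podocan, had 45 and 63 against 39 and 40 (-0.46, SE 0.31). Of 27 genes of glycosaminoglycan linkage and dermatan or chondroitin sulfate synthesis, 13 were tested, 12 of them below 0. The median was -0.29, beside -0.02 for all tested genes. Both AAV-Fgf7 libraries lay below both controls in 3 of the 13, a pattern of 13.3% of all tested genes. The sum of this list was 834 and 1182 CPM in controls of rats 1 and 2 and 873 and 752 CPM with AAV-Fgf7, so the groups overlapped. Xylt1, the xylosyltransferase that starts the chain, had 401 and 917 counts in controls against 538 and 478, with a log2 fold change of -0.36 (SE 0.34). B4galt7, the next enzyme of the linkage, stood at -0.59 (SE 0.42), Csgalnact2 at -0.40 (SE 0.36) and the chain polymerising factor gene Chpf2 at -1.18 (SE 0.49). Of the keratan sulfate genes, 3 of 10 were tested, with log2 values of -0.26 for the fucosyltransferase gene Fut8, -0.11 for the sulfotransferase gene Chst2 and 0.13 for the sialyltransferase gene St3gal3.

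The collagens that the family binds were not called either. Of 11 listed, 9 were tested, 8 of them below 0, with a median of -0.23, beside -0.02 for all tested genes. In 3 of the 9 both AAV-Fgf7 libraries lay below both controls. Col1a2, the second chain of collagen I, had 700 and 707 CPM in controls and 541 and 334 CPM after AAV-Fgf7 in rats 1 and 2. Both AAV-Fgf7 values were below both controls, as for 13.3% of tested genes. The log2 fold change of Col1a2 was -0.68 (SE 0.26), with an unadjusted p of 0.0401 and an edgeR adjusted p of 0.9996. Its partner Col1a1 did not show this pattern, with 27479 and 31843 CPM in controls against 32728 and 22677 CPM. The fibril-associated collagen genes Col14a1 and Col12a1 stood at -0.48 (SE 0.27) and -0.65 (SE 0.40), and Col5a2 at -0.29 (SE 0.23). Of 28 collagen processing and crosslinking genes, 18 were tested, 16 below 0 (median -0.14), and in 4 both AAV-Fgf7 libraries lay below both controls. Among them the prolyl hydroxylase gene P3h1 stood at -0.81 (SE 0.35) and the chaperone gene Fkbp10 at -0.32 (SE 0.21). The tolloid protease gene Tll1 stood at -0.74 (SE 0.45) and the lysyl oxidase gene Loxl3 at -0.35 (SE 0.35).

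Proteases and signalling partners of the family were also without a call. Of 11 proteases, 6 were tested and 5 were below 0 (median -0.27, beside -0.02 for all tested genes). In 3 of the 6 both AAV-Fgf7 libraries lay below both controls, as in 13.3% of all tested genes. Mmp2, a gelatinase gene, stood at -0.36 (SE 0.19), the membrane protease gene Mmp14 at -0.28 (SE 0.21) and Bmp1, whose product removes propeptides of biglycan and osteoglycin, at -0.25 (SE 0.26). Of 19 signalling genes, 12 were tested, 5 above and 7 below 0 (median -0.13). Among them the receptor gene Igf1r stood at 0.98 (SE 0.63), Insr at -0.50 (SE 0.33), Kdr at -0.41 (SE 0.29) and the TGF-beta receptor gene Tgfbr1 at -0.34 (SE 0.25). Among 16 other proteoglycans, 10 were tested, 3 above and 7 below 0 (median -0.23). Sdc1, the epithelial proteoglycan syndecan-1, had 24 and 34 counts in controls and 57 and 52 with AAV-Fgf7, above both controls in both, as for 14.8% of tested genes. The log2 value of Sdc1 was 0.89 (SE 0.33), with an unadjusted p of 0.0340 and an edgeR adjusted p of 0.9996. The basement membrane proteoglycan gene Agrn stood at 0.41 (SE 0.25), the cartilage proteoglycan gene Acan at -0.52 (SE 0.45) and the versican gene Vcan at -0.43 (SE 0.43).

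**Figure D3:**
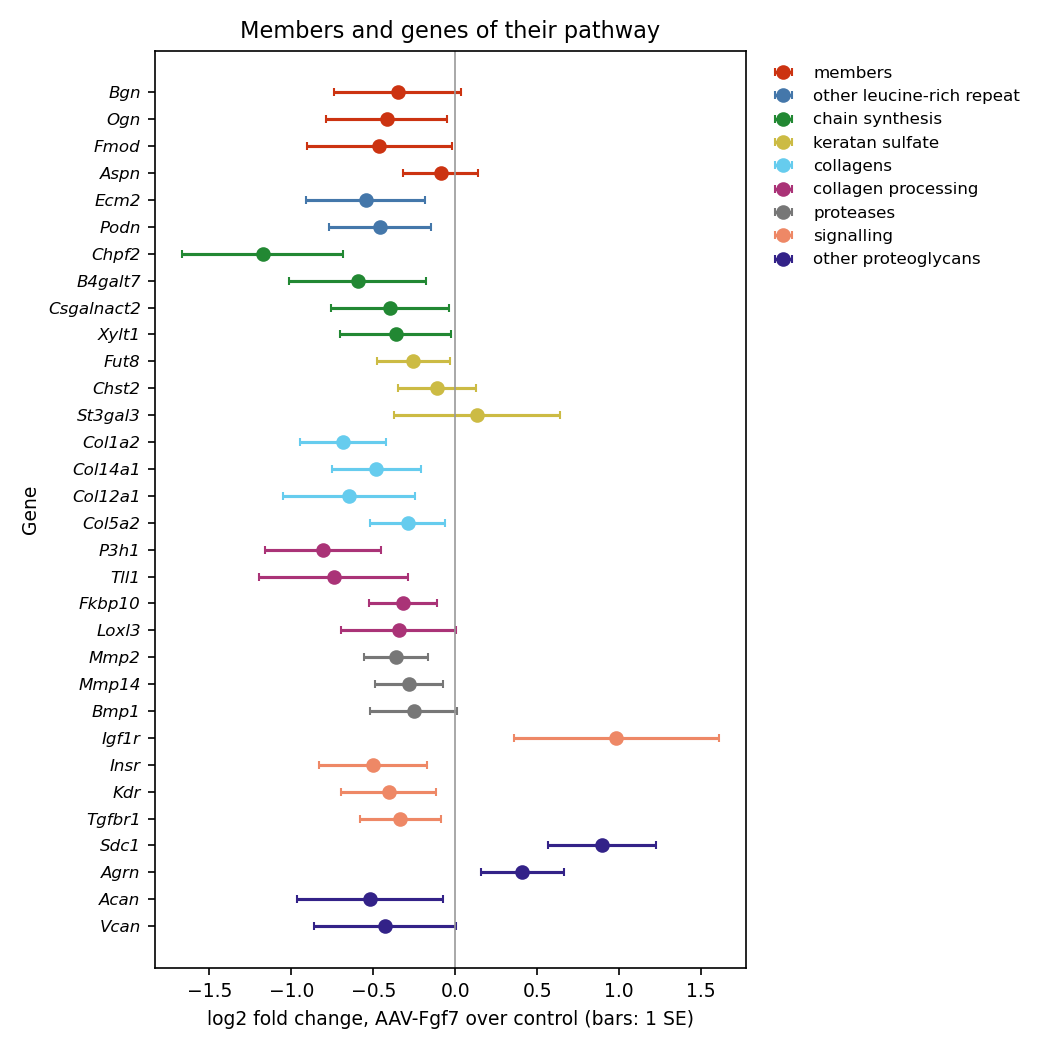
log2 fold changes (AAV-Fgf7 over control) with bars of 1 SE for the 4 tested members and for the genes of lowest p from each list of their pathway, coloured by list. The 4 members lie between -0.46 and -0.09, and no gene shown passed the edgeR test over all genes.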

How the data were processed

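RNA-seq libraries came from ear skin of 2 rats, 1 control and 1 AAV-Fgf7 ear per rat. The authors deposited raw counts per gene and, for the same genes, FPKM, which equalled the count over the listed gene length and an effective library total. Rows carry mouse Ensembl identifiers, and 0 of these occurred in the RefSeq table of the rat build GRCr8. Per the submitters' processing notes the build was Rnor_6.0 (rn6). The aligner, counter and strand setting were not given in the sources used here. Because a single treated column is named in the labels of both AAV-Fgf7 samples, the other treated column was given to rat 2 by its number. Reads may be lost or shared between near-identical genes under mouse models.

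Genes passing filterByExpr (6370, with 98.9% of counts) were tested with edgeR 4.0.16 in R 4.3.3, with TMM factors of 0.948 to 1.03, a two-sided quasi-likelihood test and Benjamini-Hochberg adjustment at 0.05. The SE is the log2 fold change over the root of F. The common biological coefficient of variation was 29.1%. Alternatives used limma 3.58.1, DESeq2 1.42.0, other scalings, filters and FPKM with pseudocounts of 1 and 0.1. The fit was also run on simulated data that varied less between replicates than these, with larger changes than those of the members. That run does not show that changes of the members' size would be called here. Poisson intervals (95%) and the limit of 3 counts for a 0 cover counting error only, since reads carry no molecular identifiers. All pairs of libraries differed by more than sampling noise (chi-square per degree of freedom of at least 6.26).

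The members and the 22 lists were chosen with earlier results of these data known. Named genes were all members, up to 4 tested genes of lowest p per pathway list, the nearest profiles (log2 CPM, prior count 2, mean of at least 20 CPM), at most 2 genes of highest CPM per marker list and Fgf7. Further marker genes, named because they were abundant or at or near 0, were chosen after their values were seen. The ears of a rat share its number in the titles, which pairs the libraries. Their deviations from the group means correlated at r = -0.30 over the tested genes, which are not independent replicates. A gene that the rule for nearest profiles names is not reported here.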

Additional observations from a re-analysis of the deposited data

Results flagged for a closer look

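For 4 members the ratio of AAV-Fgf7 to control lay on opposite sides of 1 in the 2 rats, a difference that was not tested, since each rat gave 1 library per group. The ratio of CPM in rat 1 and rat 2 was 1.46 and 0.446 for Bgn, 1.42 and 0.370 for Fmod, 1.32 and 0.433 for Ogn, and 2.23 and 0.416 for Omd. The values of Omd rest on 5 and 12 counts in rat 1 and 10 and 4 in rat 2, with overlapping counting intervals. Opposite sides were found for 59.1% of all tested genes. These ratios rest on the match of the AAV-Fgf7 libraries to the rats, made by column number. With that match exchanged, Bgn, Fmod and Ogn would lie below 1 in both rats, and Omd still on opposite sides.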

How the results depend on the processing

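Only the crossed pairing was added after seeing the data. The edgeR count of 0 changed genes was also 0 with RLE factors, library totals, limma-voom, both FPKM fits and a filter on a mean count of 10, but 4 genes were called by DESeq2 and 3 by edgeR without the low-count filter. With rat as a replicate block edgeR called 0 genes, and it called 0 with the pairing crossed. At an unadjusted edgeR p under 0.05 there were 75 genes with the block and 301 with the pairing crossed. Chi-square per degree of freedom was 9.47 and 20.5 between the ears of rats 1 and 2. It was 6.26 between the control of rat 1 and the AAV-Fgf7 library of rat 2, and 8.38 for the reverse pair. Which pairing is right was not tested. The block changed no other call. Leaving out 1 library gave 0 to 59 calls (59 without the control of rat 1, 40 without that of rat 2 and 0 without either AAV-Fgf7 library), in fits where the lone library is assumed to vary like the other group. Across these fits the log2 fold change ran from -0.77 to 0.24 for Bgn, -1.04 to 0.10 for Fmod, -0.84 to 0.081 for Ogn and -0.22 to 0.023 for Aspn, and no member was called (lowest adjusted p 0.298, for Ogn without the control of rat 1). In the 10 alternatives that kept all libraries, Bgn stood at -0.36 to -0.30, Fmod at -0.48 to -0.41, Ogn at -0.43 to -0.37 and Aspn at -0.10 to -0.05. The ratio of summed levels was 0.807 with library totals and 0.774 with FPKM. The SE of 0.23 to 0.44 limits which differences of a member could be seen with 2 libraries per group, and depth limits Omd.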
